A study of Drosophila melanogaster with 384 samples.

Results

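Male-limited newly transcribed regions (NTRs) are stretches of the Drosophila melanogaster genome that gave reads and were annotated apart from the known gene models. Their levels were low in males and far lower in females. Some of those with a known position lie in introns of annotated genes or antisense to them. Of the 22726 NTRs in the count table (each named by an XLOC number), 4176 had a mean of 5 to under 50 counts over all 384 libraries. Of these, 273 had a mean level in the male libraries at least 10 times that in the female libraries, and they are the subject here. The remaining 3903 NTRs of the same abundance served for comparison. Levels are given as CPM, a read count scaled to the library's total on nuclear, non-ribosomal gene models. The members were chosen by their mean count and by the sex ratio of their mean CPM, which is therefore given only as a description, whereas variation among male lines and its relation to other genes were not used in the choice.

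In Drosophila, RNA found in males alone comes largely from the reproductive tract. The testis holds spermatocytes, in which a dedicated transcription machinery (the tMAC complex and the testis TAFs) turns on the genes of meiosis and sperm formation, and the Y-linked fertility genes are transcribed there too. The accessory glands make the proteins of the seminal fluid, such as sex peptide, and the ejaculatory duct and bulb add others. The testis is also known for transcribing many short, weakly conserved and non-coding RNAs.

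The flies belonged to 96 wild-derived inbred lines of the Drosophila Genetic Reference Panel (DGRP). All groups were reared on medium with 10% ethanol, so no group on standard medium enters here, and were collected after mating at 3 to 5 days of age. Each line gave 2 replicates of 30 pooled males and 2 of 25 pooled females, so a sample is a pool of one genotype and carries no information on single flies. Library totals ranged from 6481833 to 17401404 counts in males (median 10214028) and from 5356737 to 16341651 in females (median 10464967). One read was worth 0.0979 CPM at the median male total.

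The labels on sex were checked against marker genes. The 11 spermatocyte regulators had male to female ratios of 0.643 to 378, with 8 of them at 10 or more, and mia, bol and twe at 3.26, 6.50 and 0.643. The 21 accessory gland genes had male to female ratios of 215 to 705, the 31 spermatid and sperm genes a median ratio of 453, and the 4 Y-linked fertility genes in the table ratios of 579 to 1741. Ovary and egg genes summed to over 500 CPM in 1 male library of each of 6 lines. Among females, replicate 1 of line 911 and replicate 1 of line 852 stood apart, with 231 and 100.03 CPM summed over the 273 male-limited NTRs, against a female median of 14.8 CPM. Without these 2 female libraries, left out after seeing the data, the same rule gave 285 NTRs, including all 273.

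The 273 NTRs were rare transcripts even in males. Their mean male level ran from 0.916 to 9.24 CPM with a median of 1.77 CPM, and their mean female level had a median of 0.049 CPM. Together they took 0.0628% of the male counts and 0.00186% of the female counts. The ratio had a median of 35.6 and reached 4847: it was 10 to under 20 for 79 NTRs, 20 to under 50 for 90, 50 to under 100 for 33, 100 to under 500 for 33, and 500 or more for 38. In bulk samples such as these, fewer cells of a type and less RNA per cell cannot be told apart. Male-limited expression was no rarity among annotated genes, as 984 of the 2807 in the same window of abundance passed the same ratio. Among the 355 NTRs with a mean of 50 counts or more, 7 did.

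The lines of the 2 sexes separated in some of these NTRs and not in others. In 62 of the 273 the lowest male line lay above the highest female line, and in 139 males exceeded females in all 96 lines. Because the ratio fixed this direction nothing follows from these counts. Over all gene models with a mean of at least 5 counts, 12.9% separated the sexes in the first way and 23.3% in the second. The level never reached 0 in both replicates of a male line for 179 NTRs, and did so in 10 or more lines for 40. Lines at 0 were not counted for other transcripts, so these 2 numbers have no background here. Just inside the threshold, XLOC_000315 and XLOC_000544 had ratios of 10.1 and 10.2, and just outside it XLOC_007398 and XLOC_030763 had ratios of 9.90 and 9.93.

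The most abundant members showed both patterns. XLOC_028330 had a lowest, median and highest line of 1.73, 9.22 and 23.6 CPM in males, against 0, 0.264 and 3.24 CPM in females, so that the sexes overlapped at the edges. XLOC_015373 had 0.508, 8.80 and 25.3 CPM in male lines, against 0, 0.382 and 2.42 CPM in female lines. XLOC_027296 had 0.0521, 8.63 and 14.7 CPM in male lines, against 0, 0.0421 and 0.591 CPM in female lines. In each of these 3 the lowest male lines lay within the female range. XLOC_018937 likewise overlapped, with 0.146, 8.52 and 16.3 CPM in male lines, against 0.0407, 0.438 and 2.73 CPM in female lines. XLOC_028553 did not overlap, with 4.93, 8.08 and 14.03 CPM in male lines, against 0, 0 and 0.585 CPM in female lines. XLOC_016592 was also separate, with 2.06, 7.59 and 18.01 CPM in male lines, against 0, 0.144 and 1.28 CPM in female lines.

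Positions in the release 5 genome (BDGP5) were at hand for 18 of the 273 from the annotation that accompanies the study. Its tables are ordered or limited by the study's own tests and were held here only in part, so the 18 are no random draw of the members. Of these, 9 were classed there as intergenic, 5 as antisense to an annotated gene and 4 as intronic. The 10 of them with the strongest variation among lines are given here. XLOC_026234 (chr3R:26658545-26661394, minus strand, antisense), XLOC_002261 (chr2L:16435555-16437375, plus strand, intronic), XLOC_025799 (chr3R:22598479-22600697, minus strand, intergenic) and XLOC_011438 (chr2R:20943279-20945128, minus strand, intergenic) led. They were followed by XLOC_000225 (chr2L:1790694-1792283, plus strand, antisense), XLOC_008206 (chr2R:15960863-15963174, plus strand, intergenic), XLOC_028330 (chrUextra:105158-142164, minus strand, intergenic) and XLOC_013476 (chr3L:9971936-9972378, plus strand, intronic). The list closed with XLOC_027434 (chrU:9237722-9238875, plus strand, intergenic) and XLOC_019738 (chr3R:1952458-1954589, plus strand, antisense). U and Uextra are the collections of sequence that release 5 could not place on a chromosome arm. XLOC_027434 lies within the 1154 bases it shares with XLOC_027825, another member on the opposite strand of U, so the 2 are not independent. The libraries were directional, but whether reads were counted by strand is not given in the sources used here, and for the antisense members and this pair the reads of the strands may be mixed.

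The first question was whether the male-limited NTRs differed among the 96 male lines. Most did: by edgeR's quasi-likelihood F-test over the male libraries, 257 of 273 (94.1%) varied with line at a Benjamini-Hochberg adjusted p under 0.05. The background was high, with 84.3% of all 18944 transcripts tested passing, so the count says little by itself. F sets the variation among lines against that between replicates. Its median was 5.97 for the male-limited NTRs, 1.67 for the other NTRs of the same window and 5.43 for the male-limited annotated genes. Over all transcripts it was 2.98. The SD of line levels had a median of 0.77 log2 units in the male-limited NTRs, 0.61 in the male-limited annotated genes and 0.43 in the other NTRs, and the SD between replicates of a line 0.46, 0.38 and 0.48. Median male counts were 18.2, 30.7 and 13.0. Over all transcripts the median SD of line levels was 0.35, that between replicates 0.27 and the median male count 96.6. Within the 76 lines whose male replicates were sequenced on the most common pair of flow cells 250 members passed, beside 83.4% of all transcripts. In the other 20 lines, most of which shared another pair, 183 of 272 (67.3%) passed, beside 52.3%. With the pool (flow cell and lane) as a covariate in limma 264 passed, beside 90.3%. Most lines shared both of their pools with other lines, so this covariate cannot remove differences between such groups of lines.

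Line levels were repeatable in most members. Over the 96 lines the levels of male replicates 1 and 2 correlated with a median Pearson r of 0.71 among the male-limited NTRs, 0.72 among male-limited annotated genes and 0.29 among the other NTRs. An r over 0.5 was found in 193 of the 273 (70.7%), in 82.2% of the male-limited annotated genes and in 20.5% of the other NTRs. Over all 18944 transcripts the median r was 0.54 and 54.7% exceeded 0.5, at a higher median male count (96.6). Restricting the other NTRs to the male counts spanned by the members left their median at 0.32.

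**Figure D1:**
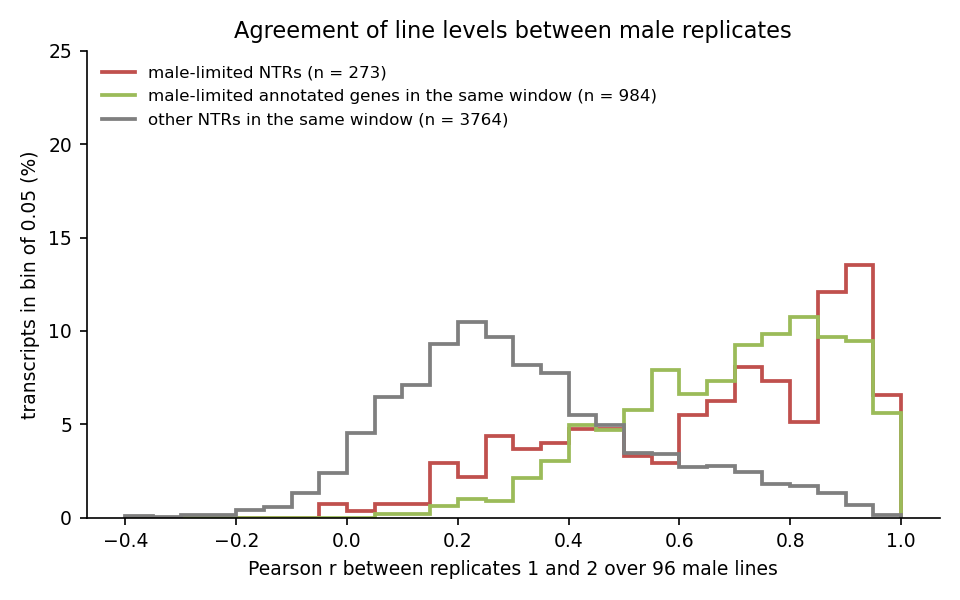
Distribution of the Pearson correlation between male replicates 1 and 2 over 96 lines, in bins of 0.05, as a percentage of 273 male-limited NTRs, 984 male-limited annotated genes and 3764 other NTRs of the same abundance with at least 5 mean male counts. The medians lie at 0.71, 0.72 and 0.29.

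Among the 6 members with the largest F, 4 were near 0 in part of the male lines and well above it in the rest. XLOC_026153 had a lowest, median and highest male line of 0, 0 and 15.2 CPM, against 0, 0 and 0.152 CPM in female lines (F = 72.5, edgeR adjusted p = 1.38e-32). It stood under 0.5 CPM in 76 male lines, at 2 CPM or more in 20, and in no line between these levels. All 20 exceeded 1 CPM in both replicates. XLOC_003662 had 0, 3.22 and 28.3 CPM in male lines, against 0, 0 and 0.503 CPM in female lines (F = 46.2, adjusted p = 6.51e-46 by edgeR). Here 38 male lines were under 0.5 CPM, 3 between 0.5 and 2 CPM, and 55 at 2 CPM or more.

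XLOC_016361 split the lines in the same way. It had 0, 0.0605 and 11.7 CPM in male lines, against 0, 0 and 0.461 CPM in female lines, with 59 male lines under 0.5 CPM, 37 at 2 CPM or more and none between (F = 44.5, adjusted p = 1.29e-40 by edgeR). XLOC_014037 had 0, 0.0488 and 11.2 CPM in male lines, against 0, 0 and 0.554 CPM in female lines, with 76, 3 and 17 male lines in these ranges (F = 40.4, adjusted p = 3.82e-34 by edgeR). Its low lines were at 0 in both replicates in 39 cases.

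The other 2 of the 6 had more lines at intermediate levels. XLOC_001785 had 0, 0.688 and 21.4 CPM in male lines, against 0, 0.122 and 1.56 CPM in female lines, and 43 of its male lines lay between 0.5 and 2 CPM (F = 44.3, adjusted p = 7.93e-53 by edgeR). XLOC_007722 had 0, 1.22 and 16.5 CPM in male lines, against 0, 0 and 0.623 CPM in female lines, with 41, 11 and 44 male lines in the 3 ranges (F = 40.4, adjusted p = 1.30e-50 by edgeR). In none of these 6 NTRs did a line show 0 in one replicate and 1 CPM or more in the other. None of the 6 has a position in the annotation used.

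**Figure D2:**
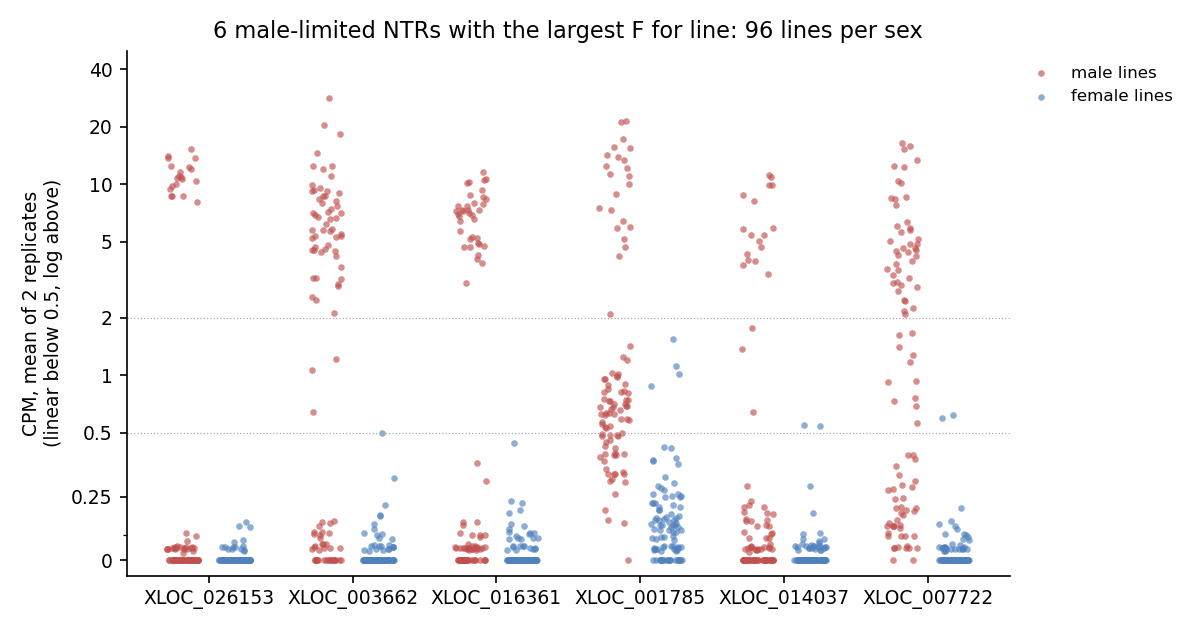
Levels of the 6 male-limited NTRs with the largest F for line, each point being 1 of 96 DGRP lines (mean of 2 replicates, CPM, linear below 0.5 and log above, dotted lines at 0.5 and 2 CPM), males left and females right. XLOC_026153 and XLOC_016361 have no male line between the dotted lines.

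Some members owed their male mean to few lines. The 3 highest lines held a median of 7.71% of a member's summed male CPM, where 3 equal lines of 96 would hold 3.13%, and over 10% in 91 members. This share was not computed over all transcripts, so these values do not set the members apart from other transcripts of low count. XLOC_002372 was the extreme at 48.6%, with 0, 0.0549 and 20.8 CPM as lowest, median and highest male line, against 0, 0 and 0.461 CPM in female lines. XLOC_008550 followed at 47.9%, with 0, 0.172 and 28.8 CPM in male lines, against 0, 0.0428 and 1.52 CPM in female lines. Their highest lines were 365 and 287.

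Line 486 was the highest line of the other 3 members of this kind. XLOC_006032 reached 36.4 CPM in males of line 486 (53.8 and 19.1 CPM in its replicates), against 7.13 CPM in the next male line. XLOC_006029 reached 38.8 CPM in the same line (53.2 and 24.4 CPM in its replicates), against 5.55 CPM in the next. XLOC_027397 reached 83.6 CPM there (122.5 and 44.7 CPM in its replicates), against 21.4 CPM in the next, and its 3 highest lines held 34.8% of its summed male CPM. In each case replicate 1 was the higher, and replicate 2 too lay above the mean of every other line. Their female lines reached no more than 0.276, 1.35 and 0.971 CPM.

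A total of 16 members did not pass the line test. One of them, XLOC_025678, had 1.59, 4.43 and 13.5 CPM as lowest, median and highest male line, against 0, 0 and 0.222 CPM in female lines, with F = 1.03 and an edgeR adjusted p of 0.460. Its replicates differed as a whole, averaging 6.66 CPM in replicate 1 and 3.06 CPM in replicate 2. With a replicate block its F rose to 5.09 (edgeR adjusted p = 1.53e-14), and the number of members called rose to 267 of 273, beside 88.7% of all transcripts. A shift of over 1 log2 unit between replicates was found in 4 of the 273 members and in 158 of all 18944 transcripts.

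The second comparison related each NTR to the testis genes across male lines. A testis score was formed as the mean log2 CPM of 42 genes (11 spermatocyte regulators such as aly, comr and can, and 31 spermatid and sperm genes such as dj, fzo and the protamines Mst35Ba and Mst35Bb), centred over lines. It ranged from -0.51 to 0.59 log2 units (SD 0.21). An accessory gland score from 21 seminal fluid genes, such as SP and Acp36DE, ranged from -0.79 to 0.88 (SD 0.30). The scores correlated with each other at r = -0.19. Both entered the same model of the replicate sums of 96 lines.

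Members rose with the testis score far more often than they fell. By edgeR's quasi-likelihood test 130 of the 273 (47.6%) rose with the testis score, beside 20% of all 18944 transcripts, and 7 (2.56%) fell, beside 26.8%. Of the other NTRs 2.18% rose and 25.2% fell, and of the male-limited annotated genes 57.6% rose and 1.42% fell. Scaling to total counts left the members at 132 rising and 4 falling, while the background became 21.8% rising and 16.3% falling. The median Pearson r with the testis score was 0.19 over the members, -0.12 over all transcripts and -0.16 over the other NTRs, and 213 members had a positive r. These r values share their libraries and depth with the score. In the 76 lines sequenced on the main pair of flow cells 110 members (40.3%) rose, beside 19.2% of all transcripts. In the remaining 20 lines 16 members (5.88%) rose, a smaller share than the 10.8% of all transcripts, and 0 fell (2 at an unadjusted p under 0.05 in edgeR). The excess of rising members was thus not seen in the calls there. Members had a median male count of 18.2, against 96.6 over all transcripts, so the calls in 20 lines cannot show that the relation was absent. The median r of the members was 0.11 in these 20 lines (174 positive), against -0.10 over all transcripts.

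The 5 members with the highest r were all present in every male line. XLOC_028553, whose levels are given above, had r = 0.75 and Spearman's rho = 0.72 with the testis score (permutation p = 1e-05 for each, the smallest that 100000 permutations can give). Its slope in limma was 0.99 ± 0.09 log2 units per unit of score (SE, 96 lines), with an edgeR adjusted p of 2.42e-17 over all transcripts. Without the 2 lines farthest from the median score r was 0.75, and it was 0.76 in the 76 lines of the main flow cells and 0.69 in the other 20.

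XLOC_028498 had 2.85, 5.40 and 9.09 CPM as lowest, median and highest male line, against 0, 0 and 0.145 CPM in female lines. Its r was 0.68 and rho 0.65 (permutation p = 1e-05 each), and the limma slope was 0.97 ± 0.11 (SE; edgeR adjusted p = 2.06e-12). XLOC_027983 had 2.94, 5.02 and 8.95 CPM in male lines, against 0, 0 and 0.187 CPM in female lines. Its r was 0.67 and rho 0.61 (permutation p = 1e-05 each), with a limma slope of 1.04 ± 0.12 (SE; edgeR adjusted p = 9.71e-13). A slope of 1 would be a change between lines as large as that of the mean testis gene.

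XLOC_027224 had 2.34, 4.79 and 7.83 CPM in male lines, against 0, 0 and 0.0974 CPM in female lines, with r = 0.63 and rho = 0.59 (permutation p = 1e-05 each; edgeR adjusted p = 6.94e-12). XLOC_022898 had 0.715, 1.47 and 3.21 CPM in male lines, against 0, 0.0373 and 1.17 CPM in female lines, with r = 0.60 and rho = 0.61 (permutation p = 1e-05 each; edgeR adjusted p = 2.58e-10). Without the 2 extreme lines r was 0.65, 0.64, 0.61 and 0.59 for these 4 in the order given. In all, 546 relations between a member and a score were computed.

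At the other end, the 5 lowest r with the testis score were weak. XLOC_025678 had r = -0.30 and rho = -0.32 (permutation p = 0.00278 and 0.00167; edgeR adjusted p = 0.0291). XLOC_002721, with 1.39, 3.06 and 6.27 CPM in male lines against 0, 0.0585 and 2.17 CPM in female lines, had r = -0.29 and rho = -0.29 (permutation p = 0.00445 and 0.00467; edgeR adjusted p = 0.0248). XLOC_011423, XLOC_025998 and XLOC_005374 followed with r = -0.26, -0.25 and -0.25, of which only the last passed in edgeR (adjusted p = 0.0395). Of the 7 members that fell, XLOC_006029 and XLOC_006032 did so through line 486, which also had the lowest testis score. Without that line their edgeR slopes turned from -1.88 and -2.54 to 1.70 and 0.69. XLOC_028177, another of the 7, was also highest in line 486, with 69.0 and 25.3 CPM in its replicates, against 16.6 CPM in the next line. With line 486 left out 1 member fell in all, XLOC_025678, beside 23.0% of all transcripts. In the same setting 124 members rose, beside 20.2%.

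By the sex ratio that chose the members, the relation is described as follows. Among the 38 NTRs with a ratio of 500 or more, all 38 had a positive r with the testis score (0.15 to 0.75, median 0.35) and 36 rose with it, beside 94 of the 235 with a lower ratio (median r 0.15). These are 94.7% and 40%, beside 20% of all transcripts and 57.6% of the male-limited annotated genes. The 38 were closer to the 11 spermatocyte regulators (median r 0.45) and the 4 Y-linked genes kl-2, ORY, ARY and Ppr-Y (0.42) than to the spermatid and sperm genes (0.28). For the 235 the medians were 0.13, 0.16 and 0.15. The 38 also varied less among lines, with a median SD of 0.51 against 0.85 log2 units. They repeated less well, with a median replicate r of 0.37 against 0.75. The median SD between replicates was 0.52 in the 38 and 0.45 in the 235, and the median F for line 1.785 and 7.16. Their male counts were similar (medians 21.4 and 17.8). No test was made between these subsets, since the ratio defined them.

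**Figure D3:**
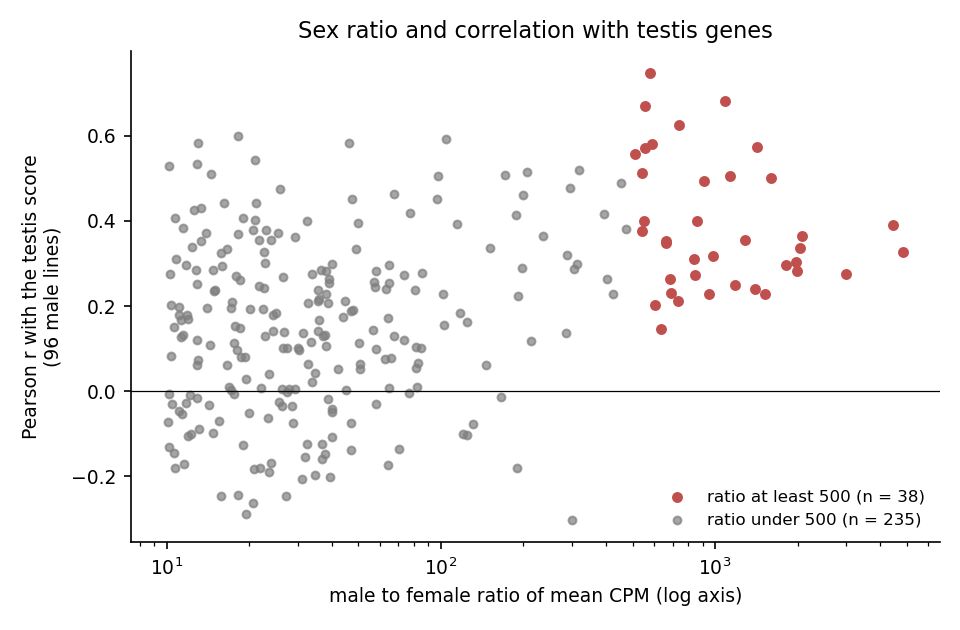
Male to female ratio of mean CPM (log axis) against the Pearson correlation with the testis score over 96 male lines, for 38 male-limited NTRs with a ratio of at least 500 and 235 below it. All 38 lie above 0, and the lower-ratio NTRs spread from -0.30 to 0.60.

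The 38 high-ratio members also stood together in the numbering of the NTRs. Their numbers all lie between XLOC_027195 and XLOC_028611. In the part of the annotation used, the 83 located NTRs numbered from XLOC_027082 to XLOC_028727 are all on unplaced sequence, 35 on U and 48 on Uextra. This range of numbers held 74 members (27.1%) and 2.61% of the other NTRs, while the highest ratio of a member outside it was 300.3. Of the 74, 61 (82.4%) rose with the testis score, beside 20% of all transcripts. Their median r was 0.34, their median replicate r 0.38 and their median SD among lines 0.52 log2 units, and these values include the 38. A number is not a position, and only 4 of the 74 have one: XLOC_027195 (chrU:2119411-2180251, plus strand), XLOC_027434, XLOC_027825 (chrU:9237676-9464587, minus strand) and XLOC_028330. XLOC_027195 and XLOC_027434 had a correlation of 0.89 across the male lines. It was among the highest of the 37128 pairs of members (median r 0.05), and no other pair of these 4 reached 0.83.

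The accessory gland score was related to few members. By edgeR 10 of the 273 (3.66%) rose with it, beside 3.14% of all transcripts, a share close to the background. None fell, beside 0.839% (4 fell at an unadjusted p under 0.05). DESeq2's Wald test gave 11 rising (4.03%, beside 3.38%) and 0 falling. Single libraries with a replicate block gave 18 rising (6.59%, beside 7.96%) and 1 falling (0.366%, beside 4.32%), shares below the background. In that setting the libraries of a line counted as separate samples although the score varies by line. Its counts are therefore not on a par with those of the test over lines. The median r was -0.02 over the members and 0.01 over all transcripts. None of the 38 high-ratio members was called.

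The best of them was XLOC_025678, the NTR that fell with the testis score. Its r with the accessory gland score was 0.53 and rho 0.49 (permutation p = 1e-05 each), and its limma slope was 0.97 ± 0.17 log2 units per unit of score (SE; edgeR adjusted p = 1.6e-05). The r was 0.48 without the 2 extreme lines, 0.54 in the 76 lines of the main flow cells and 0.43 in the other 20. With a ratio of 300.3 it was also the most male-limited of the members numbered outside the range above. XLOC_025799, the intergenic NTR on 3R, had 0, 1.15 and 5.80 CPM in male lines, against 0, 0 and 0.892 CPM in female lines, with r = 0.41 and rho = 0.41 (permutation p = 4e-05 and 3e-05) and a limma slope of 2.10 ± 0.47 (SE; edgeR adjusted p = 0.00593).

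XLOC_006457 had 0.746, 2.51 and 6.90 CPM in male lines, against 0, 0.206 and 0.859 CPM in female lines, with r = 0.40 and rho = 0.34 (permutation p = 2e-05 and 0.00072; edgeR adjusted p = 0.0156). XLOC_023912 had 0.0926, 0.799 and 5.08 CPM in male lines, against 0, 0 and 0.284 CPM in female lines, with r = 0.40 and rho = 0.45 (permutation p = 4e-05 and 1e-05; edgeR adjusted p = 0.0204). XLOC_005374 had 0.0936, 1.06 and 3.91 CPM in male lines, against 0, 0.0446 and 0.747 CPM in female lines, with r = 0.40 and rho = 0.38 (permutation p = 7e-05 and 0.00021; edgeR adjusted p = 0.0451). Without the 2 extreme lines r was 0.39, 0.40, 0.37 and 0.35 for XLOC_025799 and these 3 in turn.

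**Figure D4:**
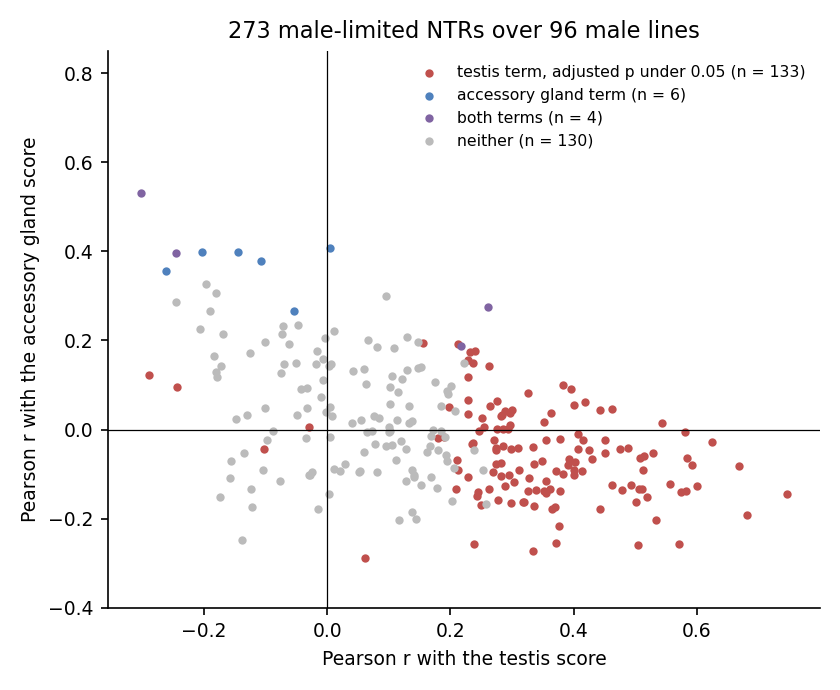
Pearson correlation of each of the 273 male-limited NTRs with the testis score (horizontal) and the accessory gland score (vertical) over 96 male lines, coloured by which term passed an edgeR adjusted p of 0.05. The members reach 0.75 on the testis axis and 0.53 on the accessory gland axis.

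Of the 6 with the largest F, 0 passed for either score in edgeR (also 0 at an unadjusted p under 0.05), with testis slopes of 1.08 to 3.00 log2 units per unit of score and adjusted p of 0.225 to 0.393. The annotated genes whose male line profiles were most like theirs were CG11498 for XLOC_026153 (r = 0.51), Amy-d, an amylase, for XLOC_007722 (r = 0.50), Rpp14b for XLOC_016361 (r = 0.39), Sgf11 for XLOC_014037 (r = 0.39), NimA for XLOC_003662 (r = 0.36) and CG14659 for XLOC_001785 (r = 0.35). Each is the best of 13657 annotated genes over 96 lines, and the median of this best r over all 273 members was 0.46. None of the 6 thus exceeded r = 0.51 with any annotated gene tested.

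The summed level of the 273 NTRs ran from 6.34 to 231 CPM over the female libraries, against 391 to 873 CPM over the male libraries. Female replicate 1 of line 911 held 36.9% of the male mean of the members but 0.0773% of that of the accessory gland genes and 0.248% of that of the spermatid and sperm genes. In it 157 members had at least 5 counts and 38 exceeded their own male mean. None of the 38 high-ratio members had 5 counts in this library. Their ratio already required a very low mean female level, so nothing follows from this absence. The same library had the highest summed level of all NTRs of any female library (36873 CPM, against a female median of 19241) and the highest share of reads on no annotated feature (6.88%, female median 2.29%). Replicate 2 of the same line had 10.4 CPM of the members.

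XLOC_014079 shows the contrast within that line. It had 13.1 CPM in female replicate 1 of line 911 and 0.167 CPM in female replicate 2, while the male replicates of the line had 0 and 0.0939 CPM. Female replicate 1 of line 59 held more of the other male lists, with 4.10% of the male mean of the spermatid and sperm genes, 1.44% of that of the accessory gland genes and 6.77% of that of the members. What sets the female levels of the members was not tested.

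**Figure D5:**
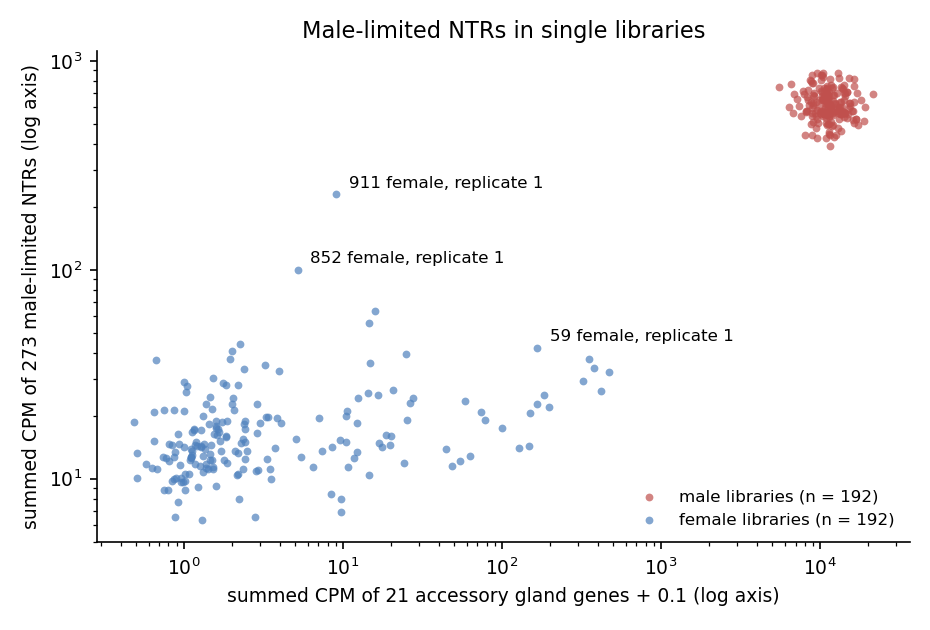
Summed CPM of the 273 male-limited NTRs against summed CPM of 21 accessory gland genes (plus 0.1) in each library, both on log axes, for male and female libraries. Female replicate 1 of line 911 has 231 CPM of the NTRs at 8.95 CPM of the accessory gland genes, and the female libraries with most accessory gland RNA are not those with most NTR RNA.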

How the data were processed

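RNA of pooled adult flies was depleted of ribosomal RNA and sequenced as directional single-end libraries. Per the labels and the study's methods, the authors trimmed reads with cutadapt 1.6, removed ribosomal, microbial and repeat reads with BWA 0.7.10, and aligned the rest to BDGP5 with STAR 2.4.0e. The deposited values are raw read counts per gene model, made by the authors with HTSeq (intersection-nonempty), which covers known genes and NTRs. Reads with more than one alignment (25.8% of all tallied) and reads on no feature (2.85%) or on several (1.39%) stayed out, as did 162 ribosomal and 35 mitochondrial rows. Reads removed as repeats or as not unique lower the counts of regions in repeated sequence.

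CPM was computed on the totals of the remaining rows. Line and score tests used edgeR 4.0.16 (TMM, quasi-likelihood, mean of at least 5 counts per male library, adjusted p under 0.05 by Benjamini and Hochberg over 18944 transcripts). Slopes with SE came from limma 3.58.1, and log2 CPM used a prior count of 2. DESeq2 1.42.0 was an alternative. Named members were the 6 of highest male CPM, the 6 of largest F, the extremes of r with either score and of the 3-line share (5 each), those next to the threshold and 10 with positions. The members and gene lists were chosen with earlier results of these data known. Replicates were separate pools of flies of 1 inbred line. Of 9 Y-linked genes listed, 4 had a row here. No sequence of the regions was used here. The line test and the testis term were tried on simulated counts.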

Additional observations from a re-analysis of the deposited data

How the results depend on the processing

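The rule gave 267 members with TMM scaling, 322 with medians, 354 at a ratio of 5, 194 at a ratio of 20 and 243 to 302 from a single replicate. The 257 members called for line became 18 of 18 tested at a minimum of 50 mean counts, beside 92.4% of all transcripts. With a replicate block they became 267, beside 88.7%. The 130 members that rose with the testis score were 126 without replicate 1 (beside 20.7% of all transcripts) and 109 without replicate 2 (beside 18.1%). They were 16 in the 20 lines outside the main flow cells (beside 10.8%). Single libraries with a replicate block gave 156 (beside 22.9%), but there the 2 libraries of a line counted as separate samples. The 7 that fell became 3 with DESeq2 size factors, 4 with total scaling, 3 with the DESeq2 Wald test, 3 with no filter, 3 to 4 in a single replicate, 3 on the main flow cells, 0 in the other 20 lines (2 at an unadjusted p under 0.05 in edgeR) and 1 without line 486, which was chosen after seeing the data. Over all transcripts the falling share in these settings ran from 2.89% (the other 20 lines) to 23.0% (without line 486). In the other 20 lines the edgeR slopes of XLOC_005374, XLOC_006032 and XLOC_006029 turned to 0.31, 0.68 and 1.37. Without line 486 those of XLOC_006032 and XLOC_006029 turned to 0.69 and 1.70. The 10 that rose with the accessory gland score were 7 without replicate 1 (beside 3.81% of all transcripts) and 6 without replicate 2 (beside 3.21%). In the other 20 lines 0 rose (15 at an unadjusted p under 0.05 in edgeR), beside 0.0531%. Single libraries with the replicate block gave 18 rising, beside 7.96%, and 1 falling, beside 4.32%, again with the libraries of a line as separate samples. The median r with the testis score was 0.18 with a prior count of 0.5, 0.22 by Spearman's rho, 0.17 after subtracting pool means, 0.18 without the 2 extreme lines, 0.21 with total scaling and 0.11 in the other 20 lines. The median r with the accessory gland score was -0.037 by Spearman's rho, -0.033 after subtracting pool means, -0.0090 without the 2 extreme lines and, with the sign turned, 0.09 in the other 20 lines, where 162 members were positive and the median over all transcripts was 0.08. The 6 lines with egg transcripts in a male library were also chosen after seeing the data. Without them 257 members were called for line (beside 84.0% of all transcripts) and 9 rose with the accessory gland score (beside 3.12%). With the testis score 128 then rose (beside 20.4%) and 7 fell (beside 24.4%).

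Male counts of 9.39 to 95.8 per library limit the precision of a line mean, and the 38 members with the highest ratio had a median replicate r of 0.37, against 0.75 for the other 235. The 2 replicates of a line mostly fell on 2 flow cells, so replicate and flow cell cannot be told apart there. A male line at 0 may still hold the transcript below 1 read.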

Other observations

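A few members followed another transcript closely over the 96 male lines, and these were picked after their values were seen. XLOC_005787 and XLOC_005794, which are 7 apart in number, correlated at r = 0.96 with each other and at r = 0.94 and 0.96 with the annotated non-coding RNA lncRNA:CR44909. XLOC_019738 on 3R correlated at r = 0.89 with lncRNA:CR43487, and XLOC_000632 at r = 0.87 with lncRNA:CR45363. Over all 37128 pairs of members the median r was 0.05, with 487 pairs over 0.5 and 1 over 0.9. Among the 38 members with a ratio of 500 or more the median was 0.31, and 20.3% of their 703 pairs exceeded 0.5, against 0.404% of the 27495 pairs of the other 235.

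The numbers of the located NTRs run in blocks by chromosome, and the members were spread unevenly over these blocks. The block of the X chromosome held 8 members (2.93%) and 522 of the other NTRs (13.4%), that of chromosome 4 held 0 members and 95 other NTRs, and that of 3R held 54 members (19.8%) and 741 other NTRs (19.0%). These are counts of numbers and not of measured positions.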
